A study of Mus musculus with 6 samples.

Results

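The respiratory chain and the ATP synthase were followed at the level of their subunit genes in the ventricles of neonatal mice that overexpressed *Runx1*. Members were the protein-coding genes of the deposited comparison whose symbols name a subunit of complex I (*Nduf*), complex II (*Sdh*), complex III (*Uqcr*), complex IV (*Cox4* to *Cox8*) or the ATP synthase, complex V (*Atp5*), together with the protein-coding genes of mitochondrial DNA (*mt-*). This rule took 97 of 19079 genes, of which 84 are encoded in the nucleus and 13 in the mitochondrion, and they were described apart. The table files *Cox5b-ps* as protein coding although its name marks a pseudogene, so it is counted among the 84.

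Hearts came from C57BL/6 mice at postnatal day 10. The control group held 2 mice that carried the Myh6-CreER transgene, a tamoxifen-inducible Cre recombinase driven by a cardiomyocyte promoter. The *Runx1* OE group held 4 mice with the same transgene and the Rosa-Runx1 overexpression allele, which Cre switches on. Every mouse of both groups received tamoxifen at P0 and P1, so Cre and tamoxifen are shared, and the paper describes induction of RUNX1 in only part of the cardiomyocytes. *Runx1* itself, the gene switched on, averaged 16622 normalized counts in the *Runx1* OE group and 40.2 in the controls.

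Oxidative phosphorylation makes most of the ATP of the adult heart. Complexes I and II take electrons from NADH and succinate, complex III passes them to cytochrome *c*, complex IV hands them to oxygen, and complex V uses the proton gradient to make ATP. After birth the heart turns from glycolysis toward oxidation of fatty acids, and several small subunits of complex IV then shift from a general form, used in most tissues, to a heart and skeletal muscle form: *Cox6a1* gives way to *Cox6a2*, *Cox7a2* to *Cox7a1* and *Cox8a* to *Cox8b*.

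Values are normalized counts, which are read counts divided by a size factor for each library, and the values given for a group are the authors' means. Columns for single libraries carry names that no label ties to a mouse. They were not used, and groups were not inferred from *Runx1* levels in them. The spread within groups was instead recovered from the group means together with the geometric mean over the 6 libraries, and the same numbers fix the lowest and highest value that any single library of a group can have had. Each member was tested with limma's moderated test, with Benjamini-Hochberg adjustment over 15172 genes and a threshold of 0.05. All 97 members passed the filter of a mean of at least 10 normalized counts.

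The general isoforms of 2 small complex IV subunits, *Cox6a1* and *Cox8a*, were higher in *Runx1* OE ventricles, by 1.52-fold and 1.57-fold. No other member passed the test in either direction. Thus 2 of 97 members were called higher and 0 lower, where 1.02% of all genes tested were higher and 0.573% lower. At an unadjusted p below 0.05 there were 4 members, 3 of them higher (*Cox6a1*, *Cox8a*, *Sdhd*) and 1 lower (*Cox6a2*), in a background of 13.0% of genes. For the same 4 members the limits of single libraries did not overlap between the groups, against 5.69% of all genes. The 2 called members are 2.06% of the 97, and the 4 are 4.12%, which is below both of these backgrounds.

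**Figure D1:**
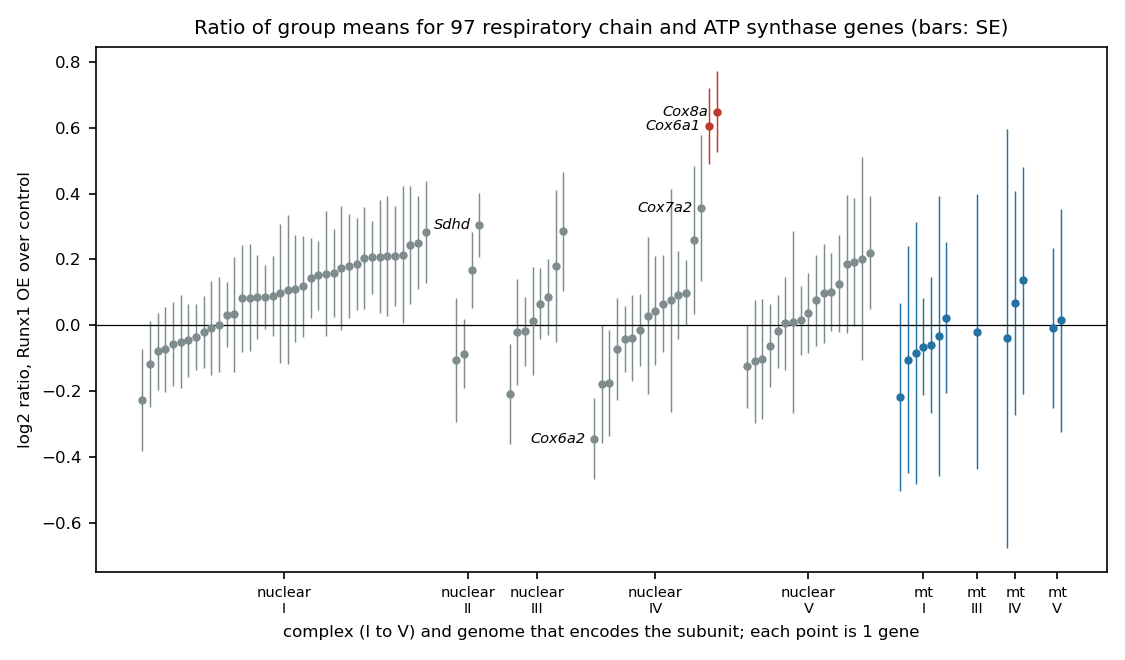
Each point is the log2 ratio of the authors' group means, *Runx1* OE over control, for 1 of 97 genes, with its standard error, ordered within each complex and split by the genome that encodes the subunit (mt, mitochondrial). *Cox6a1* and *Cox8a* (red, adjusted p under 0.05) sit at 0.61 and 0.65, and most other points lie within 0.25 of 0.

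*Cox6a1* and *Cox8a* are also the members for which upstream sequence is shown, beside that of *Cox8b*, the muscle partner of *Cox8a*. The 250 bases before the annotated start were taken from RefSeq on GRCm38.p6, on the minus strand at chr5:115348959-115349208, chr19:7217617-7217866 and chr7:140900447-140900696. Capitals mark complete matches to the motifs searched.
Cox6a1: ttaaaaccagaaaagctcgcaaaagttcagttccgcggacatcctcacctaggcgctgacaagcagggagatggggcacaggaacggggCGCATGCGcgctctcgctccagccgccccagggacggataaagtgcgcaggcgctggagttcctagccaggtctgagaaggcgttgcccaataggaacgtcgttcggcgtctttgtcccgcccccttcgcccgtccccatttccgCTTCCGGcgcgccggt
Cox8a: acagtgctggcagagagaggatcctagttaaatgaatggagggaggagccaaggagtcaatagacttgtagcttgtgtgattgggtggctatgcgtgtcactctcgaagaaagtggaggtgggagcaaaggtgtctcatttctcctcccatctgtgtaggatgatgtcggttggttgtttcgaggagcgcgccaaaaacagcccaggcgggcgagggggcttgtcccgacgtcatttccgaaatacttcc
Cox8b: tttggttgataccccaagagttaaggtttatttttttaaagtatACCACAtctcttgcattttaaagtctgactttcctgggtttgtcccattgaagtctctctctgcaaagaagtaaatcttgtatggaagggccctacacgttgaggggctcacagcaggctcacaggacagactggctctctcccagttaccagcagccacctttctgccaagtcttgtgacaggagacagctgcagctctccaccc
The motifs were the NRF1 core CGCATGCG, ERR AAGGTCA, YY1 AAGATGG, RUNX TGTGGT and, added after the sequences had been seen, ETS CCGGAAG, each on both strands. The search used the window of 300 bases, 250 before and 50 after the start. *Cox6a1* held the NRF1 core, which begins at position -161 from the start, and an ETS match, read as CTTCCGG, at -16. *Cox8a* held ETS matches at -5 and 32, which reach past the stretch shown. *Cox8b* held a RUNX match, read as ACCACA, at -206, and neither *Cox6a1* nor *Cox8a* held those letters in the window.

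Of the 84 nuclear members, 68 matched an entry of the promoter table. The NRF1 core was in 8 of the 68 windows (11.8%) and in 1.91% of all 27025 windows. The ETS letters were in 16 (23.5%, against 9.12%), those of YY1 in 10 (14.7%, against 6.48%) and those of ERR in 8 (11.8%, against 4.66%). The RUNX letters were in 7 (10.3%), where all windows had 16.9%. These matches describe the letters present and are not binding sites.

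*Cox6a1* encodes the general form of subunit 6A and lies on chromosome 5 (GRCm39, 115483701 to 115487040, minus strand). It averaged 3554 normalized counts in the *Runx1* OE group and 2336 in the controls. Each *Runx1* OE library lay between 3022 and 3954 and each control library between 2042 and 2631, so every *Runx1* OE library was above both controls. The log2 ratio was 0.61 ± 0.11 (SE), with a 95% interval of 0.34 to 0.87 and an adjusted p of 0.0473. A processed pseudogene, *Gm50432*, is 91.8% identical over 51.5% of the transcript and was listed at 19.3 and 11.8 normalized counts.

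*Cox8a* encodes the general form of subunit 8 and lies on chromosome 19 (7192518 to 7194981, minus strand). It averaged 3989 normalized counts with *Runx1* OE and 2544 in the controls, with single libraries between 3305 and 4671 and between 2175 and 2914. The groups again did not overlap. The log2 ratio was 0.65 ± 0.12 (SE), with an interval of 0.36 to 0.93 and an adjusted p of 0.0474. Both calls lie close to the threshold, and 5 of 13 alternative settings ended them, where the adjusted p rose to as much as 0.244 for *Cox6a1* and 0.255 for *Cox8a*. When the trend of the log2 ratio with transcript length was subtracted, the ratios were 0.48 and 0.53, with adjusted p of 0.0968 and 0.0939.

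*Cox6a2*, the heart and skeletal muscle form of subunit 6A, lies on chromosome 7 (127804607 to 127805559, minus strand) and averaged 22381 normalized counts with *Runx1* OE against 28413 in the controls. Single libraries lay between 20961 and 23843 and between 26920 and 29126, so the groups did not overlap. The log2 ratio was -0.34 ± 0.12 (SE), with an interval of -0.63 to -0.06, an unadjusted p of 0.0227 and an adjusted p of 0.277. *Cox6a2* therefore did not pass the threshold over all genes.

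The ratio of *Cox6a1* to *Cox6a2* was 0.159 in *Runx1* OE and 0.0822 in control means, which is 1.93-fold higher. In single libraries it can have been no lower than 0.127 in *Runx1* OE and no higher than 0.0977 in control hearts. Counted per kilobase of transcript, *Cox6a1* made up 15.9% of the Cox6a transcripts in *Runx1* OE and 8.92% in control hearts. The muscle form remained the more abundant one in both groups.

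For subunit 8, *Cox8a* over *Cox8b* was 1.48 in *Runx1* OE and 0.899 in control means, 1.65-fold higher, but the limits of single libraries (1.04 to 2.30, and 0.683 to 1.30) overlap. These are ratios of counts, and the annotated transcripts differ in length (564 and 2149 bases). Per kilobase of these lengths the ratio was 5.65 and 3.42. However, 2149 bases exceed the whole span of the deposited *Cox8b* gene (chromosome 7, 140478858 to 140480359). The length fits another gene model than the one counted, so which form was the more abundant cannot be read from these ratios. *Cox8b*, the muscle form, was at 2692 and 2832 normalized counts, a log2 ratio of -0.07 ± 0.16 (SE, adjusted p = 0.886). In the annotation that gave the 2149 bases, *Cox8b* shares 1231 bases with *Psmd13* on the other strand. No source used here says whether counting used strand. Its level is therefore less certain than that of *Cox8a*, which overlaps no gene on the other strand.

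For subunit 7A, the general form *Cox7a2* was at 3061 and 2392 normalized counts, a log2 ratio of 0.36 ± 0.22 (SE, adjusted p = 0.57). The muscle form *Cox7a1* was at 1736 and 1961, a log2 ratio of -0.18 ± 0.16 (SE, adjusted p = 0.715). The ratio of *Cox7a2* to *Cox7a1* was 1.76 and 1.22, or 1.45-fold higher, and the limits of single libraries, 0.884 to 3.39 and 0.738 to 2.08, overlap widely. Per kilobase of transcript (814 and 441 bases) the ratio was 0.955 and 0.661, with the muscle form the higher one in both group means. In each of the 3 pairs the general form had the higher ratio between groups and the muscle form a ratio below 0 on the log2 scale, yet only *Cox6a1* and *Cox8a* passed the test. *Cox7a2l*, a related gene, was at 3421 and 3209 (log2 ratio 0.09).

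**Figure D2:**
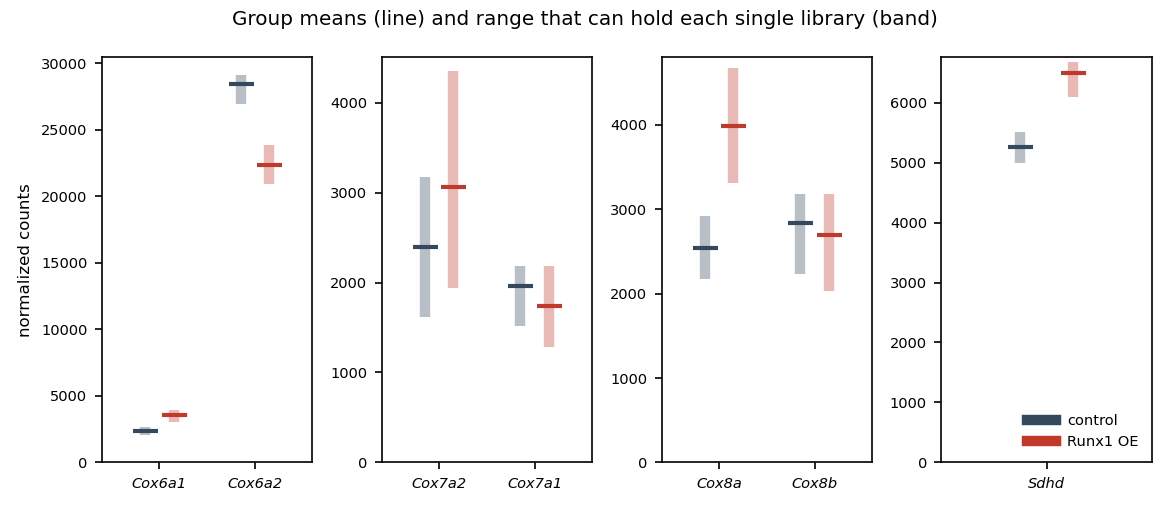
Normalized counts (vertical axis, from 0) of general and muscle isoforms and of *Sdhd* in control (grey) and *Runx1* OE (red) hearts, where the line is the authors' group mean and the band spans the values that any single library can have had. The bands of *Cox6a1*, *Cox6a2*, *Cox8a* and *Sdhd* do not overlap between the groups, while those of *Cox7a2*, *Cox7a1* and *Cox8b* do.

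Marker genes of the cell types in the ventricle were read beside these isoforms. Of 8 cardiomyocyte markers, 7 had a lower mean in *Runx1* OE hearts and none passed the test, with a median log2 ratio of -0.43 and summed levels of 459700 and 602500 normalized counts, here and below with the *Runx1* OE value before that of the controls. *Pln*, which restrains the calcium pump SERCA, had the lowest ratio of the list (log2 ratio -0.82, adjusted p = 0.0796). The 3 ventricular markers all had a higher mean and none was called, with log2 ratios from 0.10 (*Myl2*, which made up most of their sum of 86340 and 80300) to 0.63 (*Hey2*, at 406 and 262). Summed levels of the other lists were 30070 and 31010 for fibroblasts, 16520 and 18050 for endothelium, 18890 and 21460 for smooth muscle and pericytes, 948 and 1060 for macrophages and 98820 and 89830 for erythroid cells. Atrial markers summed to 860 and 622, of which *Nr2f2* made up 499 and 505. The other 4 had higher means, with *Myl4* at 253 and 88.9, *Myl7* at 73.3 and 21.7, *Sln* at 22.2 and 2.53 and *Bmp10* at 13.2 and 4.08. *Sln* was not tested. The 4 atrial markers tested, *Bmp10*, *Myl4*, *Myl7* and *Nr2f2*, had a median log2 ratio of 1.60, and none was called. The part of these differences in the isoform ratios was not tested, and in whole ventricles fewer cells of a type cannot be told apart from less RNA per cell. Of tissues that could come with the dissection, brown fat and fast skeletal muscle each had a defining marker near 0: *Ucp1* was at 3.01 and 0.188 normalized counts and *Mylpf* at 4.41 and 4.62, while *Elovl3*, *Myh4* and *Myh1* were not listed. Other genes of these lists were present, with *Cidea* at 366 and 334, *Prdm16* at 411 and 478 and *Ckm* at 16175 and 21073.

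In the remaining isoform families of complex IV no member was called, where 1.02% of all genes tested were called higher and 0.573% lower. *Cox4i1*, the main form of subunit 4, was at 13542 and 13910 normalized counts (log2 ratio -0.04) and *Cox4i2*, a form found mostly in lung, at 162 and 184 (-0.18). *Cox6b1* was at 8269 and 7899 (0.07), and its testis form *Cox6b2* at 56.6 and 53.7 (0.08). *Cox7b*, on chromosome X, was at 7820 and 6535 (0.26 ± 0.23, SE). Over the 17 nuclear complex IV genes the median log2 ratio was 0.04. Of these, 12 were within 0.25 of 0, as were 10125 of all 15172 genes tested. That background, here and below, also holds genes with low counts. Among other protein-coding genes with a mean of at least 500, 115 of 156 with transcripts of at most 1000 bases were within 0.25. Of those with longer transcripts, 3518 of 4535 were.

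Among complex II genes, *Sdhd*, a membrane anchor of succinate dehydrogenase on chromosome 9 (50507657 to 50515112, minus strand), averaged 6488 normalized counts with *Runx1* OE and 5251 in the controls. Each *Runx1* OE library lay between 6096 and 6676 and each control library between 4989 and 5513, without overlap. The log2 ratio was 0.31 ± 0.10 (SE), with an unadjusted p of 0.0127 and an adjusted p of 0.21, so it did not pass. *Sdhb*, the iron-sulfur subunit, was at 4732 and 4214 (0.17). *Sdha*, the flavoprotein and the most abundant of the 4, was at 11293 and 12140 (-0.10), and *Sdhc*, the other anchor, at 5929 and 6295 (-0.09).

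Complex I, the largest complex, contributed 38 nuclear genes, and none was called or had an unadjusted p below 0.05 in limma's test. Over all genes tested, 1.02% were called higher, 0.573% lower and 13.0% had such a p. The 38 had a median log2 ratio of 0.10, with 28 above and 10 below 0. Of them, 36 lay within 0.25 of 0, as did 10125 of all 15172 genes tested. *Ndufb3*, an accessory subunit, had the highest ratio at 1141 and 938 normalized counts (0.28 ± 0.16, SE, adjusted p = 0.508). *Ndufa3*, also accessory, had the lowest at 2870 and 3360 (-0.23 ± 0.16, SE, adjusted p = 0.612). *Ndufa4*, now known to belong to complex IV, was at 7238 and 6419 (0.17 ± 0.19, SE), and its paralog *Ndufa4l2*, a hypoxia-responsive gene, at 595 and 618 (-0.06).

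Complex III contributed 8 nuclear genes with a median log2 ratio of 0.04. *Uqcrh*, the hinge protein, had the highest ratio at 3654 and 2999 normalized counts (0.29 ± 0.18, SE), and *Uqcrc1*, a core protein and the most abundant by count, the lowest at 11329 and 13093 (-0.21 ± 0.15, SE). Neither passed the test, with adjusted p of 0.583 for *Uqcrh* and 0.629 for *Uqcrc1*. The single libraries of both overlapped between the groups.

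The 17 nuclear genes of the ATP synthase had a median log2 ratio of 0.04. All 17 were within 0.25 of 0, as were 10125 of all 15172 genes tested. *Atp5b*, the catalytic beta subunit, was at 66423 and 71330 normalized counts (-0.10 ± 0.18, SE). *Atp5mpl*, a small membrane subunit, had the highest ratio (1431 and 1228, 0.22) and *Atp5d*, the delta subunit, the lowest (10926 and 11915, -0.13). Subunit *c* of the proton-conducting ring has 3 genes that encode the same mature protein. *Atp5g3* was at 9043 and 8947 normalized counts, *Atp5g1* at 4845 and 5056 and *Atp5g2* at 30.1 and 29.9.

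The low value of *Atp5g2* cannot be read as its expression. *Gm10175*, a processed pseudogene that is 100% identical over 60.3% of the *Atp5g2* transcript, was listed at 4837 and 5086 normalized counts. In the same way *Gm10039*, 99.8% identical to *Atp5g1* over 67.2% of the transcript, was listed at 5025 and 5208, and *Cox5b-ps*, at 3589 and 3693, is 99.2% identical to *Cox5b*, at 6169 and 6233. Of the 84 nuclear members, 14 share such a near-identical stretch with a listed gene elsewhere in the genome, so the levels of these genes are uncertain. For 43 of 97 members a listed gene overlaps on the other strand.

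**Figure D3:**
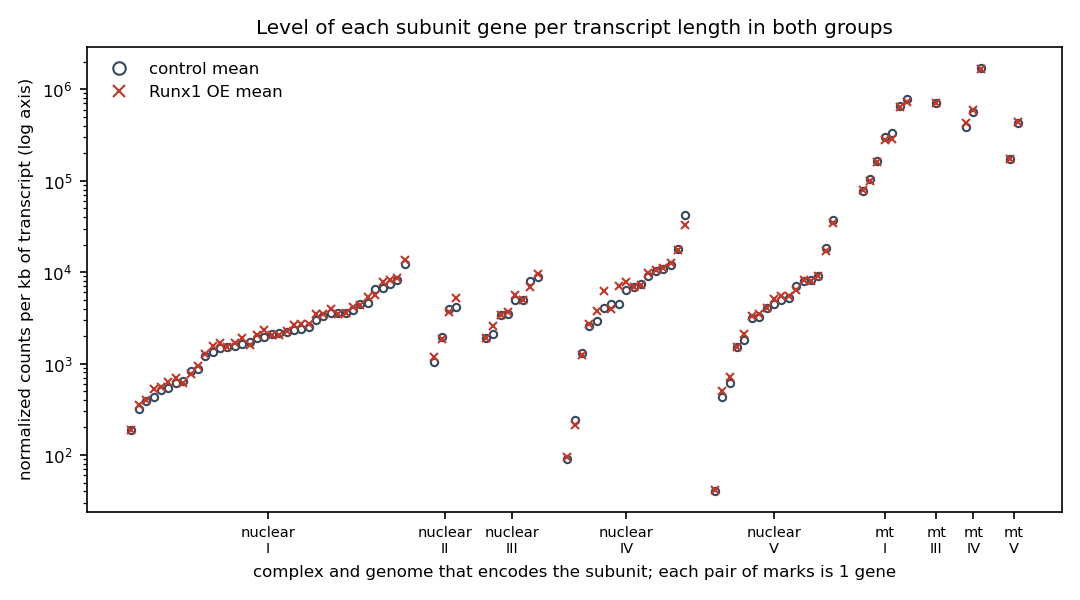
Normalized counts per kilobase of transcript (log axis) for each of the 97 genes, with control means as open circles and *Runx1* OE means as crosses, ordered within each complex. The marks of a gene nearly coincide, and the 13 mitochondrial genes lie above every nuclear gene.

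Set per length of transcript, *Cox6a2* had the highest control mean of the nuclear members, 41784 normalized counts per kilobase, above *Atp5b* at 37036. In *Runx1* OE means the order was the other way, with *Cox6a2* at 32914 and *Atp5b* at 34488. The libraries of *Atp5b* overlapped between the groups, and the change of order was not tested. *Atp5a1*, the alpha subunit, was at 16828 in *Runx1* OE and 18158 in control hearts and *Cox4i1* at 17296 and 17765, and *mt-Co1*, the highest of all, was at 1658000 and 1704300.

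The 13 mitochondrially encoded genes carried 36.3% of all normalized counts with *Runx1* OE and 36.0% in the controls, and none was called or had an unadjusted p below 0.05 in limma's test. Over all genes tested, 1.02% were called higher, 0.573% lower and 13.0% had such a p. The 13 had a median log2 ratio of -0.03, with 4 above and 9 below 0, and 0.02 when both groups were scaled to equal totals. All 13 were within 0.25 of 0 as deposited, as were 10125 of all 15172 genes tested. For each of the 13 the limits of single libraries overlapped between the groups, where 5.69% of all genes had limits apart. The 84 nuclear members carried 2.54% and 2.46%, with a median of 0.08, 57 above and 27 below 0, where the median over all genes tested was 0.01.

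The 7 core subunits of complex I made in the mitochondrion had a median log2 ratio of -0.06. *mt-Nd2* had the lowest, at 298620 and 347440 normalized counts (-0.22), and *mt-Nd3* the highest, at 27517 and 27072 (0.02). *mt-Nd1* was at 700020 and 742400, *mt-Nd4* at 881550 and 902010, and *mt-Nd5* at 507700 and 545630. *mt-Nd4l* was at 29679 and 31038, and *mt-Nd6*, the member encoded on the light strand, at 82418 and 85878. In the values as deposited, 6 of the 7 had a mean below that of the controls, and in each case the limits of single libraries overlapped.

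*mt-Cytb*, the cytochrome *b* of complex III, was at 808460 and 819240 normalized counts (-0.02). The catalytic core of complex IV showed *mt-Co1* at 2561600 and 2633200 (-0.04), *mt-Co2* at 408550 and 389580 (0.07) and *mt-Co3* at 334110 and 303890 (0.14). The complex V subunits *mt-Atp6* and *mt-Atp8* were at 295140 and 292110 (0.01) and at 35392 and 35597 (-0.01). None of the 3 mitochondrial complex IV genes passed the test.

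Precision differed between the genomes. Half-widths of the 95% interval of the log2 ratio had a median of 0.33 for nuclear members (0.22 to 0.78) and 0.78 for mitochondrial ones (0.34 to 1.46). The latter were set by the fitted trend of variance on abundance, since the spread within groups of the mitochondrial genes was a log2 SD of 0.13 to 0.35. A ratio smaller than its half-width did not reach an unadjusted p of 0.05 in limma's test. The adjusted threshold asked for more: *Cox6a2* (-0.34, half-width 0.28) and *Sdhd* (0.31, half-width 0.22) exceeded theirs and were not called. Nuclear copies of 10 of the mitochondrial genes, 12 in all, were also listed and held 5.81% of all counts in *Runx1* OE and 5.35% in control hearts. *Gm28437*, 100% identical to *mt-Co3*, was listed at 333900 and 303600. Whether reads of mitochondrial genes were counted under these copies was not tested. With the copies added the median log2 ratio of the mitochondrial members was -0.03.

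Transcript length moved with the ratios of all genes. Nuclear members have a median transcript length of 1002 bases, and 52 of 84 are no longer than 1441 bases, the upper end of the shortest of 10 equal length classes of protein-coding genes. The median log2 ratio was 0.11 in that class and -0.08 in the longest. Other protein-coding genes with transcripts of at most 1000 bases and a mean of at least 500 had a median of 0.14 (156 genes). The 42 nuclear members of this length, taken without a limit on the mean, had 0.09. The 42 longer members had 0.04 and the 4535 other longer genes -0.04. The Spearman correlation of length and ratio was -0.20 over the 84 members and -0.22 over 13027 protein-coding genes, as a description over genes that share libraries. With the length trend subtracted the median of the nuclear members was -0.02. The part of length in the medians of the complexes was not tested.

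**Figure D4:**
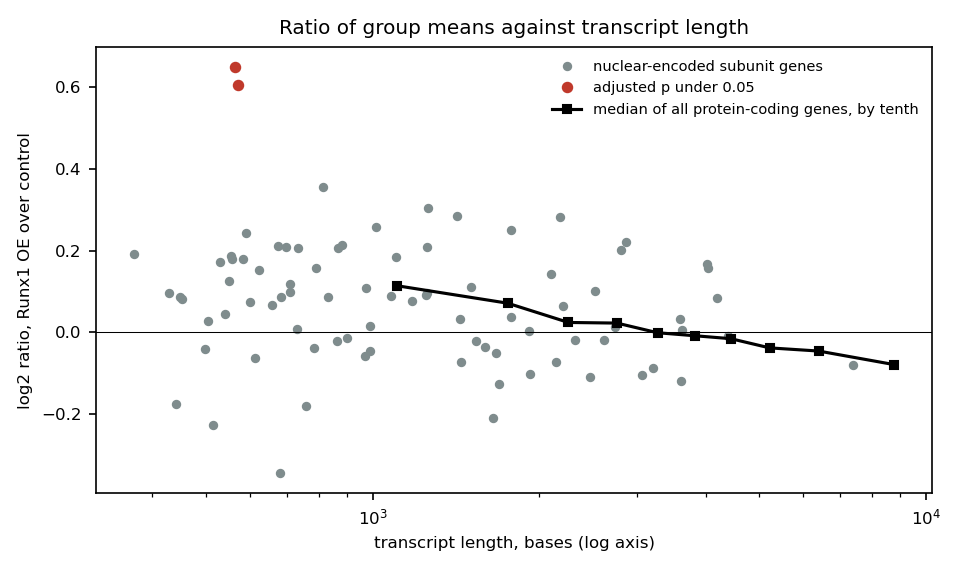
Log2 ratio of group means, *Runx1* OE over control, against transcript length (log axis) for the 84 nuclear members (grey, called ones red), with the median of all protein-coding genes in each of 10 length classes (black). The black line falls from 0.11 to -0.08, and *Cox6a1* and *Cox8a* lie above it.

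Genes that build or run the complexes were taken from fixed lists. Of 61 tested assembly factors none was called in either direction, where 1.02% of all genes tested were called higher and 0.573% lower. Of the 19 for complex I, 15 were above 0 (median log2 ratio 0.11), and 3 were higher and 1 lower at an unadjusted p below 0.05, where 13.0% of all genes were. *Ndufaf6* had the highest ratio of these, at 127 and 81.2 normalized counts (0.64 ± 0.23, SE, adjusted p = 0.272), and *Dmac2* the lowest, at 718 and 926 (-0.37 ± 0.15, SE, adjusted p = 0.34). Of the 24 for complex IV, 17 were above 0 (median 0.09), and the 2 at an unadjusted p below 0.05 (13.0% of all genes) were *Surf1* (269 and 213, 0.34), and *Coa4* (111 and 83.4, 0.41). The 4 factors for complex II had a median of 0.13, the 9 for complex III of 0.00 and the 5 for complex V of 0.04, and none of these had an unadjusted p below 0.05.

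Carriers and further subunits had a median log2 ratio of -0.02 over 7 genes. Among them *Cyc1*, the cytochrome *c*1 of complex III, was at 9798 and 9623 normalized counts and *Cycs*, cytochrome *c*, at 6333 and 5860. The 24 tested genes for replication, transcription and RNA handling of mitochondrial DNA had a median of 0.03. None was called (1.02% of all genes were called higher and 0.573% lower), and 1 was higher and 1 lower at an unadjusted p below 0.05 (13.0% of all genes). *Tfam*, which packages mitochondrial DNA, was at 476 and 445 (0.10), *Tefm*, a transcription elongation factor, at 192 and 139 (0.47, adjusted p = 0.365), and *Fastkd3* at 92.7 and 131 (-0.50, adjusted p = 0.199).

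The groups also differed in *Xist*, the RNA of the inactive X chromosome, at 4584 normalized counts with *Runx1* OE and 8.92 in the controls. These means do not give the sex of each *Runx1* OE mouse, and the paper used both sexes. The part of sex in the differences between the groups therefore cannot be told apart from that of genotype here. Of the members, *Cox7b*, *Ndufa1* and *Ndufb11* lie on chromosome X and had log2 ratios of 0.26, 0.08 and 0.11, none called. *Cox6a1*, *Cox8a*, *Cox6a2* and *Sdhd* are autosomal.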

How the data were processed

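RNA of ventricles from 4 *Runx1* OE and 2 control mice was sequenced (labels: left ventricles in 1 place, whole ventricles in the design). The paper's methods name STAR, mm39 and Partek E/M with median ratio scaling. HISAT2 and mm9 stand in the submitters' processing notes. Deposited gene positions match GRCm39, and their ends were moved back by 1 base.

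The authors' group means and the mean over samples are a normalized signal (counts over a size factor), whose total averaged 19423000 per sample. The deposited maximum, sum and geometric mean over samples were read as scores. The authors' own p-values, adjusted p, ratios, fold changes and limits were not used, nor were 6 columns of single samples, which no label ties to a mouse. The group means gave back the deposited sum of each member within 0.13%.

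Within-group spread was W = 2 ln(control mean) + 4 ln(OE mean) - 6 ln(geometric mean). Variance was W/2 on 4 degrees of freedom, moderated with limma 3.58.1 (squeezeVar, abundance trend) in R 4.3.3, two-sided, adjusted by Benjamini-Hochberg over 15172 genes. Of 15181 genes with a mean of at least 10, 9 with a library at 0 could not be fitted. The planned limma fit on single samples was not run, and this fallback was written beside it. Limits of single libraries follow from group means, geometric mean and maximum. Copies were found with blastn 2.17.0 (identity of at least 90% over at least 50% of the transcript). Scripts were tested on simulated data.

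Named were called members, the highest, lowest and most abundant member of each complex, mitochondrial members and isoform families, with other genes (*Sdhd*, *Sdhb*, *Sdhc*, the assembly, carrier and copy genes and *Xist*) named after their values were seen. A gene that this rule would name is not reported here. Members and lists were chosen with earlier results of these data known. The samples of a group are separate mice by their labels. Alternatives varied filter, scaling, added count, genes fitted and moderation.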

Additional observations from a re-analysis of the deposited data

How the results depend on the processing

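No called result changed direction. Of the medians of log2 ratios, which carry no test, that of mitochondrial members (-0.0331) was 0.0165 with equal totals and 0.0233 with equal totals without mitochondrial genes, and that of nuclear members (0.0829) was -0.0188 with the length trend subtracted. Both member calls were kept under 8 alternatives, which were the equal totals (with and without mitochondrial genes), the centred ratios, 1 added count, no chromosomes X and Y, protein-coding genes only, robust moderation and rescaled means. The number of members called was 0 in place of 2 with no filter, with a mean of at least 50, without the abundance trend, without moderation, and with the length trend subtracted (chosen after seeing the data, as were rescaled means and added copies). There the adjusted p (limma, Benjamini-Hochberg) of *Cox6a1* was 0.0616, 0.0506, 0.116, 0.244 and 0.0968, and that of *Cox8a* 0.0639, 0.0516, 0.116, 0.255 and 0.0939. Calls over all genes, 241 as reported, were 80 without the abundance trend (66 higher, 14 lower) and 15 without moderation (9 and 6).

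As a bound, if the highest library of each gene was a control and was left out, the median log2 ratio was 0.351 for nuclear and 0.301 for mitochondrial members, and if it was a *Runx1* OE library, -0.0225 and -0.167. Equal totals moved all ratios by 0.05. Leaving out single replicates and other pseudocounts on single samples were not run, since those columns were not used. No paired analysis was possible because the columns of single samples carry no sample number from the labels. With 2 controls, the spread rests on 4 degrees of freedom.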
